A study of Mus musculus with 6 samples.

Results

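Transcripts of chemokines and chemokine receptors were compared in stimulated CD4 T cells with and without a deletion of AMPK. The members were every symbol of the Ccl, Cxcl, Ccr and Cxcr series, together with Xcl1, Xcr1, Cx3cl1, Cx3cr1, Ackr3 and Ccrl2, and without Ccr7 and Ccr9. This gave 57 of the 23238 gene symbols in the data, of which 39 were ligands and 18 were receptors. Of these, 30 (16 ligands and 14 receptors) had a mean of at least 1 on the log2 scale over the 6 samples and were tested, and 27 were not tested.

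Spleen and lymph nodes of C57BL/6 mice, 6 to 8 weeks old by the study's methods, were the source of the cells. WT mice carried the floxed Prkaa1 gene without Cre (Prkaa1fl/fl CD4Cre-neg), and AMPK KO mice carried the same floxed gene with CD4Cre, with 3 samples in each group (WT 1 to 3 and KO 1 to 3). Both groups therefore shared the floxed allele, and CD4Cre acts in developing thymocytes, so that CD8 T cells as well as CD4 T cells of the KO mice lose the floxed exons, whereas cells outside the T lineage largely keep them. Cells of both groups rested for 1 h and were then stimulated with anti-CD3 and anti-CD28, each at 2 µg/mL by the methods, for 24 h by the labels but 6 h by the methods. The QuantSeq kit, which reads the 3′ end of transcripts, was used on 500 ng of total RNA per library. The values are log2 of a normalized value (TMM and CPM) plus 1, and they are not per transcript length. The level of a gene, or the sum of a list, was compared between samples and not between genes. The study calls the samples biologically independent, and the p-values measure the spread between these samples.

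Chemokines are small secreted proteins that attract cells bearing the matching G protein-coupled receptors. Activated T cells release CCL3, CCL4 and CCL5 together with XCL1, while ligands such as CXCL10 are induced by interferon-γ in many cell types. Receptors place T cells: CXCR5 guides cells to B cell follicles, CXCR3 and CXCR6 mark cells that enter inflamed tissue, and atypical receptors such as ACKR3 bind chemokines without classical G protein signalling.

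Prkaa1, the targeted gene, stood at 4.64, 5.24 and 4.86 in WT samples 1 to 3 and at 4.08, 4.72 and 4.67 in AMPK KO samples 1 to 3. The groups overlapped, and the log2 difference of −0.43 ± 0.25 (SE) did not pass the test (limma adjusted p = 0.357). A read at the 3′ end need not fall in the part that Cre removes, so this gene does not check the labels. Reads on genes numbered 9575307 to 10168079 per WT library and 10515306 to 11185507 per AMPK KO library. Rn45s, the ribosomal RNA precursor, took 20.7% to 24.9% of them in WT and 8.48% to 10.8% in AMPK KO. Xist, expressed from the inactive X chromosome of female cells, had 8 to 32 reads per WT library and 1998 to 2876 per AMPK KO library, while Ddx3y, a Y-linked gene, had 3159 to 3462 and 1296 to 1840. The methods describe female mice and the labels give no sex, and the sex of the cells and the genotype cannot be told apart in these libraries. Over all 11279 tested genes 637 passed an adjusted p of 0.05, with 45.1% of them higher in AMPK KO, or 32.5% when the libraries were scaled to the reads outside Rn45s.

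The tested chemokine and receptor transcripts that passed the test were all higher in AMPK KO cells. Among the tested ligands Ccl5, Ccl4, Ccl3, Cxcl10 and Cxcl2 rose, and among the tested receptors Ccrl2 and Cxcr5 rose, by 1.8-fold to 4.4-fold as ratios of mean normalized values. This is 7 of 30 tested members past the adjusted threshold in the higher direction, where the share over all tested genes was 2.54%. No tested member passed in the lower direction (0 of 30, where 3.10% of all tested genes did; 5.65% passed in either direction). At an unadjusted limma p under 0.05, 11 ligands and 6 receptors were higher (17 of 30, against 10.6% of all tested genes) and 0 were lower (against 10.7%). The log2 fold change had a median of 1.30 over the 16 tested ligands and 0.35 over the 14 tested receptors, against 0.015 over all tested genes. The mean was higher in AMPK KO for 15 of 16 ligands and 11 of 14 receptors, against 51.2% of all tested genes. The filter used the mean of all samples, and 28 of the 30 members had a mean of at least 1 in both groups, the exceptions being Ccl17 and Ccr10, which reached it in AMPK KO alone. Ccl17 is among the 11 ligands higher at the unadjusted p, and its direction was favoured by the filter.

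In 12 of the 30 tested members (8 ligands, Ccl17 among them, and 4 receptors) every AMPK KO sample lay above every WT sample, an arrangement found for 11.6% of all tested genes. The opposite arrangement was found in 0 of the 30 and in 14.0% of all tested genes. For such genes the exact two-sided permutation test over samples gave p = 0.1, the smallest value that 3 against 3 samples allow. In bulk RNA a larger number of cells of a type and more RNA per cell cannot be told apart, and this holds for each result below.

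**Figure D1:**
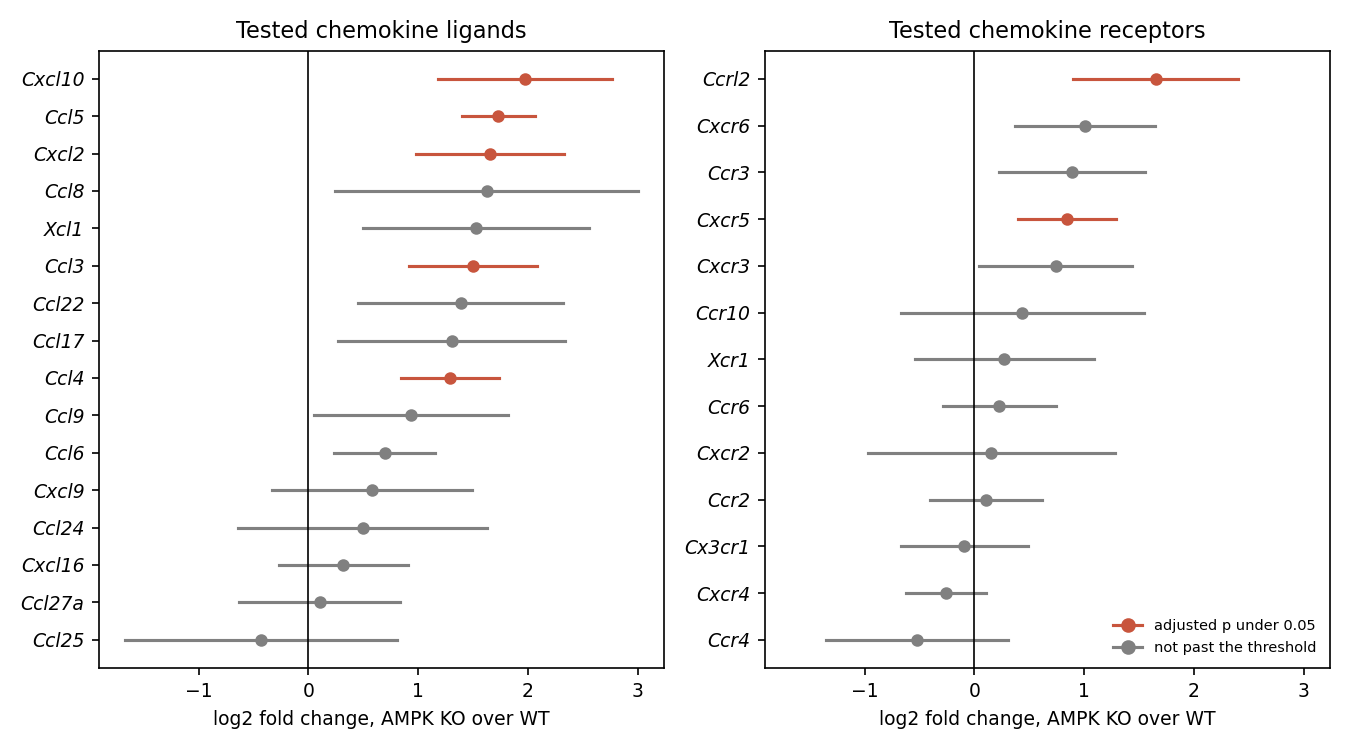
The log2 fold change of AMPK KO over WT is plotted for the 16 tested ligands (left) and 13 of the 14 tested receptors (right), with points for the estimate and lines for its 95% confidence interval. Coloured points passed an adjusted p of 0.05 (limma), and all of them lie to the right of 0.

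Cell type markers were read beside the chemokines. For all counts of marker genes, the shares over all tested genes were 2.54% higher and 3.10% lower adjusted. At an unadjusted limma p under 0.05 they were 10.6% and 10.7%. The summed normalized value of 12 macrophage or monocyte genes was 355.1 to 387.2 in WT and 663.4, 798.7 and 1228 in AMPK KO samples 3, 1 and 2. All 11 tested genes of this list had a higher mean in AMPK KO, though Fcgr1 reached the filter through AMPK KO alone. Of the 11, 6 passed the test (Csf1r, Cd68, C1qa, C1qb, C1qc and Cd14), while Mertk had 0 reads in all WT samples and 7 to 8 in AMPK KO. On leaving out WT sample 1, C1qb did not pass (adjusted p = 0.056). Csf1r did not pass when WT 1, WT 2, WT 3 or KO 1 was left out (adjusted p = 0.080, 0.051, 0.099 and 0.069), or with no filter (0.088). The summed NK cell genes were 38.2 to 56.6 in WT and 63.2 to 89.0 in AMPK KO (0 of 4 tested genes passed in limma, 2 had an unadjusted p under 0.05, of which Klre1 reached the filter through AMPK KO alone), with Ncr1 at 0 to 19 WT reads and 0 to 7 KO reads. The summed dendritic cell genes were 34.7 to 39.8 in WT and 46.8 to 66.5 in AMPK KO (0 of 6 tested genes passed, 1 at the unadjusted p), counted without Xcr1, which is a member.

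CD4 T cell genes went the other way, from a sum of 1784 to 2007 in WT to 1299 to 1668 in AMPK KO. Of 7 tested genes 3 passed as lower, and 4 were lower at the unadjusted p. Cd3e, Cd3g and Cd28 fell, by 0.66, 0.93 and 0.56 on the log2 scale, and Cd4 itself did not pass (809 to 1127 WT reads and 829 to 1096 KO reads). Cd3g did not pass when WT 1 was left out (adjusted p = 0.058). Neither Cd3e nor Cd28 passed when WT 1 (0.12 and 0.24), WT 3 (0.12 and 0.19), KO 1 (0.11 and 0.24) or KO 3 (0.070 and 0.064) was left out, or with no filter (0.051 and 0.11), and Cd28 did not pass in a fit of the recovered reads (limma voom, 0.052). The CD8 genes Cd8a and Cd8b1 were present in all libraries, with sums of 230.7 to 305.2 in WT and 321.3 to 376.1 in AMPK KO (0 of 2 passed, 2 at the unadjusted p). B cell genes overlapped (215.1 to 232.2 and 190.8 to 247.3, 0 of 5 tested genes passed and 1 at the unadjusted p, with Pax5 at 0 to 5 reads). The summed neutrophil genes were 770.5 to 884.2 in WT and 501.9 to 739.9 in AMPK KO. Of 5 tested genes 1, Ngp, passed, at a log2 change of −1.53, while S100a8 and S100a9 did not (adjusted p = 0.075 and 0.26), and the groups overlapped for S100a9. Csf3r, a neutrophil gene under the filter, went the other way, with 1 to 2 WT reads and 14 to 24 KO reads. The other gene of the list under the filter was lower in every AMPK KO sample. Of the stroma list 1 of 7 genes, Pecam1, reached the filter (0 passed, 1 at the unadjusted p), and its sums were 90.9 to 93.1 and 51.6 to 70.8. The part of these cell type genes in the chemokine results was not tested.

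**Figure D2:**
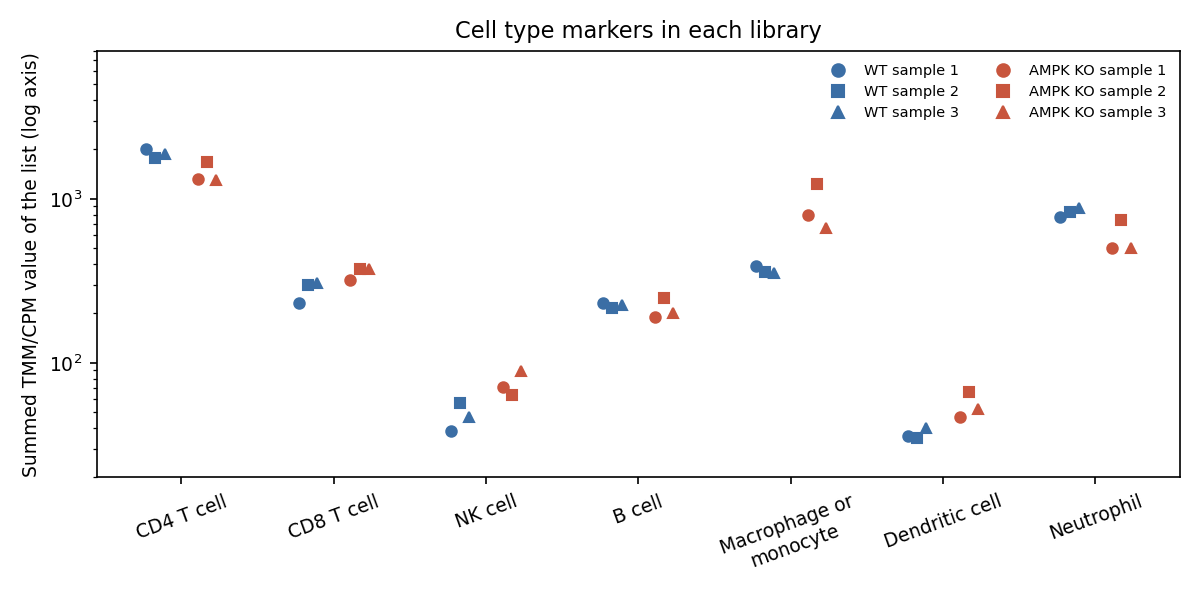
The summed normalized value of each marker list is plotted on a log axis for every library, with blue for WT and red for AMPK KO and a symbol for the sample number. The macrophage or monocyte sums of the AMPK KO libraries (663.4 to 1228) lie above those of WT (355.1 to 387.2), and AMPK KO sample 2 is the highest.

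The DNA before the start is shown for the called genes whose start site was matched. RefSeq (GRCm38.p6) start sites were matched by symbol for 42 of the 57 members, Ccl3, Cxcl2, Cxcl10 and Ccrl2 among the called ones. No start site was matched for the called genes Ccl5, Ccl4 and Cxcr5. Each sequence runs 5′ to 3′ on the strand of the gene and ends before the GENCODE gene, which leaves out the last 28 of the 250 bases searched for Cxcl2 and the last 1 for Ccrl2. The spans are chr11:83649379-83649628 on the minus strand for Ccl3, chr5:90903649-90903870 on the plus strand for Cxcl2, chr5:92348890-92349139 on the minus strand for Cxcl10, and chr9:111057520-111057768 on the minus strand for Ccrl2. Capitals mark letters of the searched motifs.
Ccl3: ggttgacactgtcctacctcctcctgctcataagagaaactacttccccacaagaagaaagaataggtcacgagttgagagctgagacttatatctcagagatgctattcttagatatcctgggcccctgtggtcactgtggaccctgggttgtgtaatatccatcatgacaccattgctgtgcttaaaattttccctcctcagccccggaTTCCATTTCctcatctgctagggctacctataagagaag
Cxcl2: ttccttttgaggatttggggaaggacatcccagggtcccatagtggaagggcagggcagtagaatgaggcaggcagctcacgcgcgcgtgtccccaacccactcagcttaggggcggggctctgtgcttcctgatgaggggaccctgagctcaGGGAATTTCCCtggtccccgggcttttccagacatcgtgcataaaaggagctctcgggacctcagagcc
Cxcl10: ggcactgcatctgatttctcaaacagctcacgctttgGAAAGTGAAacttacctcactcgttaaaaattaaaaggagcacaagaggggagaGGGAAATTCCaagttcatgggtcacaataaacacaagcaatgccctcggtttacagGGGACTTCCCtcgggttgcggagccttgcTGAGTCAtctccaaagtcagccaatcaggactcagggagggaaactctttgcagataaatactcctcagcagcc
Ccrl2: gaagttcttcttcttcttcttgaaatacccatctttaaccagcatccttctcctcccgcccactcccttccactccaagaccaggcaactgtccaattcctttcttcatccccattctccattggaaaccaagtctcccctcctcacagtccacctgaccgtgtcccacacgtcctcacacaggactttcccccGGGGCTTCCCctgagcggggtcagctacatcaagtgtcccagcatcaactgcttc

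Both strands of the 250 bases before each start were searched for the NF-kB consensus, the GAS element TTCNNNGAA bound by STAT dimers, an ISRE core GAAANNGAA bound by IRF proteins, and the AP-1 element TGANTCA. The window of Cxcl10 held 2 NF-kB matches, whose first letters were 159 and 103 bases before the RefSeq start, an ISRE core at 213 and an AP-1 element at 74. In Cxcl2 the capitals are 2 NF-kB matches on opposite strands that overlap (97 and 96 bases before the RefSeq start, which lies 3′ of the printed end). Ccrl2 had 1 NF-kB match at 56 in the printed window, and its other RefSeq windows, which are not printed, held none of the motifs. Ccl3 had 1 ISRE core at 39, read on the opposite strand. Of all 32851 RefSeq windows, 3.90% held the NF-kB consensus, 7.02% GAS, 7.13% the ISRE core and 6.75% AP-1. Counting a member where any of its windows held the motif, and some have several, NF-kB was in 9 of 42 members, the ISRE core in 8, AP-1 in 6 and GAS in 3. Among the 12 tested ligands with a window the counts were 3, 3, 3 and 1. These are matches of letters and not shown binding sites.

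The inflammatory CC ligands Ccl5, Ccl4 and Ccl3 rose. Their genes, with those of Ccl9 and Ccl6, lie within 138.9 kb of chromosome 11 (GRCm38, chr11:83525778-83664683, GENCODE M21). Ccl5, the ligand RANTES that draws T cells and monocytes, stood at 6.57, 6.36 and 6.53 in WT samples 1 to 3 and at 7.98, 8.46 and 8.22 in AMPK KO samples 1 to 3. All AMPK KO values lay above all WT values, and the lowest AMPK KO library had 2970 reads where the highest WT library had 867. The log2 fold change was 1.73 ± 0.16 (SE, 95% confidence interval 1.40 to 2.06), a 3.37-fold ratio of the mean normalized values (adjusted p = 2.02e-05, limma). This call held in all 14 alternative analyses, leave-one-out fits included.

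Ccl4 (MIP-1β), an early product of activated T cells and macrophages, stood at 4.15, 4.60 and 4.44 in WT and at 5.63, 5.85 and 5.58 in AMPK KO. There was no overlap, with 154 to 232 WT reads and 557 to 607 KO reads. Its log2 fold change was 1.29 ± 0.21 (SE, 95% confidence interval 0.84 to 1.74), a 2.51-fold ratio (limma adjusted p = 0.0028), and it too was called in all 14 alternatives. Ccl3 (MIP-1α), its neighbour, binds CCR1 and stood at 3.96, 4.21 and 3.76 in WT and at 5.25, 6.10 and 5.08 in AMPK KO. Again the groups were apart, and AMPK KO sample 2 was the highest. Ccl3 rose by 1.50 ± 0.27 (SE) on the log2 scale, a 3.08-fold ratio (limma adjusted p = 0.0063). When WT 1 or WT 3 was left out, the difference was 1.49 or 1.39 and the adjusted p was 0.054 or 0.056.

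Ccl6 and Ccl9, ligands that myeloid cells make and that attract cells through CCR1, share this stretch of chromosome 11 but did not pass. Ccl6 stood at 4.61, 4.76 and 4.92 in WT and at 5.45, 5.76 and 5.16 in AMPK KO, with no overlap. Its log2 fold change was 0.69 ± 0.22 (SE), with an adjusted p of 0.073 (limma). Ccl9 had a log2 fold change of 0.93 ± 0.41 (SE, adjusted p = 0.21), and its groups overlapped. E230016K23Rik lies on the opposite strand over part of Ccl6, and how the counting treated strand is not given in the sources used here, so that reads of such overlapping genes could not be told apart.

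A second stretch of chromosome 11, of 81.2 kb from Ccl2 to Ccl8 (chr11:82035571-82116799), holds ligands of CCR2 and CCR3, among them the monocyte attractants Ccl2, Ccl7 and Ccl12. Ccl8 was the member there that reached the filter. It stood at 2.66, 0 and 0.93 in WT and at 3.30, 3.61 and 1.55 in AMPK KO, so that the groups overlapped. Its log2 fold change of 1.62 ± 0.65 (SE) had an adjusted p of 0.16 (limma), and when KO 3 was left out it was 2.26 with an adjusted p of 0.037.

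Of the CXC ligands on chromosome 5, Cxcl10 and Cxcl2 rose. Cxcl10 (IP-10), a ligand of CXCR3 that interferon induces, stood at 1.76, 2.89 and 1.71 in WT and at 4.09, 3.95 and 4.24 in AMPK KO. No samples overlapped, there were 20 to 64 WT reads and 155 to 213 KO reads, and WT sample 2 was the highest of its group. Cxcl10 rose by 1.98 ± 0.37 (SE, 95% confidence interval 1.18 to 2.77) on the log2 scale, a 4.38-fold ratio (limma adjusted p = 0.0074). When WT 1 or WT 3 was left out, the adjusted p was 0.061 (log2 fold change 1.80) or 0.053 (1.77). Cxcl10 lies at chr5:92346638-92348889 on the minus strand, and Art3 overlaps it on the opposite strand. Its promoter stretch above is the one with matches to 3 of the 4 motifs searched.

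The neighbouring CXCR3 ligands of the same 44.1 kb (chr5:92321347-92365485) were Cxcl9 and Cxcl11. Cxcl9 stood at 3.29, 1.81 and 2.76 in WT and at 3.25, 3.71 and 2.64 in AMPK KO. The groups overlapped, and the log2 fold change was 0.58 ± 0.43 (SE, 95% confidence interval −0.33 to 1.49, limma adjusted p = 0.47). Cxcl11 had 0 reads in all WT samples and 13, 5 and 1 in AMPK KO samples 1 to 3, under the filter.

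Cxcl2 (MIP-2), a ligand of CXCR2 that attracts neutrophils, stood at 3.07, 3.51 and 3.61 in WT and at 5.32, 4.33 and 5.49 in AMPK KO. The groups were apart, and AMPK KO sample 2 was the lowest of its group, unlike for Ccl5, Ccl4 and Ccl3. Cxcl2 rose by 1.65 ± 0.32 (SE) on the log2 scale, a 3.52-fold ratio (limma adjusted p = 0.0079), with 68 to 104 WT reads and 205 to 523 KO reads. When WT 1 or KO 1 was left out, the adjusted p was 0.070 (log2 fold change 1.49) or 0.067 (1.51). Cxcl1, which lies 5′ of it within 14.7 kb (chr5:90891241-90905938) and also binds CXCR2, had 0 reads in all WT samples and 29, 4 and 32 in AMPK KO samples 1 to 3.

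**Figure D3:**
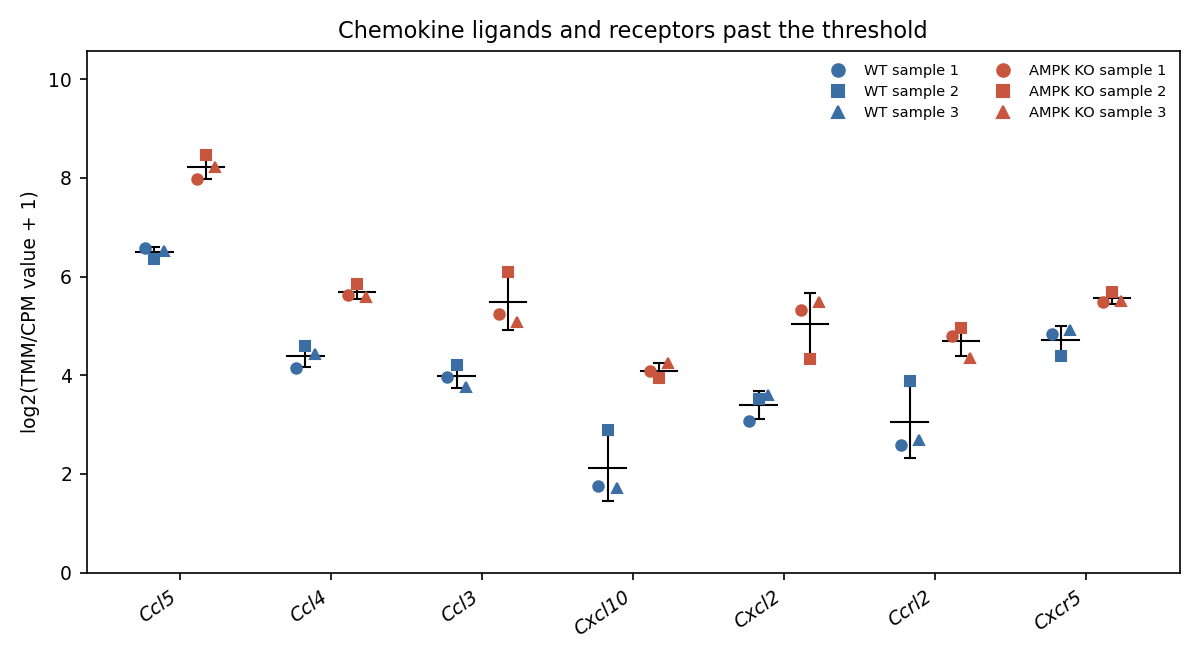
The log2 value of each sample is plotted for the 5 ligands and 2 receptors past an adjusted p of 0.05, with blue for WT and red for AMPK KO, bars for the group mean and whiskers for the SD (n = 3). For each of the 7 genes every AMPK KO sample lies above every WT sample, with Ccl5 between 7.98 and 8.46 in AMPK KO and between 6.36 and 6.57 in WT.

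Other ligands had differences of a like size with a wider spread. Xcl1 (lymphotactin), which CD8 T cells and NK cells release for XCR1-bearing dendritic cells, stood at 2.73, 4.26 and 2.10 in WT and at 4.69, 3.76 and 5.22 in AMPK KO. WT sample 2 lay above AMPK KO sample 2, and the log2 fold change of 1.53 ± 0.48 (SE) did not pass (limma adjusted p = 0.077). When WT 2 was left out it was 2.14 (adjusted p = 0.0095), and when KO 2 was left out it was 1.92 (0.012). Gm20743 lies on the opposite strand over part of Xcl1.

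Ccl22 and Ccl17, which both bind CCR4 and are made mainly by dendritic cells and macrophages, lie within 66.5 kb on chromosome 8. Ccl22 stood at 2.13, 1.43 and 1.55 in WT and at 2.21, 3.42 and 3.64 in AMPK KO. AMPK KO sample 1 lay just above WT sample 1, and the log2 fold change was 1.39 ± 0.44 (SE, limma adjusted p = 0.077). Ccl17 stood at 0.28, 1.32 and 0 in WT and at 1.43, 2.18 and 1.92 in AMPK KO, with 0 to 15 reads against 20 to 38 and an adjusted p of 0.13. Their receptor Ccr4, which Th2 and regulatory T cells carry, had a log2 difference of −0.52 ± 0.39 (SE, adjusted p = 0.47).

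Among the remaining tested ligands Cxcl16, the membrane-bound ligand of CXCR6, stood at 4.09, 4.28 and 4.12 in WT and at 4.39, 5.01 and 4.04 in AMPK KO. The groups overlapped, and the log2 fold change was 0.32 (95% confidence interval −0.27 to 0.91, limma adjusted p = 0.55). Zmynd15 overlaps it on the opposite strand. Ccl24, a CCR3 ligand, Ccl27a, a CCR10 ligand of skin, and Ccl25, the CCR9 ligand of thymus and gut, had log2 differences of 0.49, 0.10 and −0.43 and adjusted p-values of 0.64, 0.90 and 0.72. All 3 overlapped between groups. Ccl27a has a near-identical copy, Ccl27b, with 5 to 11 reads in every library, and the split of reads between the copies is uncertain.

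The receptors that rose were an atypical receptor, Ccrl2, and a follicular one, Cxcr5. Ccrl2, an atypical receptor that binds chemerin and does not signal as a chemokine receptor, stood at 2.58, 3.89 and 2.68 in WT and at 4.79, 4.96 and 4.35 in AMPK KO. The groups were apart, with WT sample 2 the highest of its group, and there were 46 to 138 WT reads and 231 to 324 KO reads. Ccrl2 rose by 1.65 ± 0.35 (SE, 95% confidence interval 0.90 to 2.40) on the log2 scale, a 3.15-fold ratio (limma adjusted p = 0.014). When WT 1, WT 3 or KO 1 was left out, the adjusted p was 0.098 (log2 fold change 1.42), 0.088 (1.47) or 0.083 (1.60), and with no filter on low genes it was 0.068. Ccrl2 lies at chr9:111054486-111057519 on the minus strand.

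Cxcr5, the receptor for CXCL13 on B cells and follicular helper T cells, stood at 4.83, 4.39 and 4.92 in WT and at 5.48, 5.69 and 5.51 in AMPK KO. No samples overlapped, and there were 200 to 259 WT reads and 516 to 545 KO reads. The log2 fold change was 0.84 ± 0.21 (SE, 95% confidence interval 0.40 to 1.29), a 1.81-fold ratio (limma adjusted p = 0.031). The call was the least steady of the 7, since it passed in 7 of 14 alternatives. When WT 1, WT 2, WT 3, KO 1 or KO 3 was left out, its adjusted p was 0.098, 0.070, 0.077, 0.11 or 0.054 and the log2 fold change was 0.90, 0.68, 0.95, 0.88 or 0.87. With no filter the adjusted p was 0.063. Bcl9l overlaps Cxcr5 on the opposite strand (chr9:44511787-44561877). Bcl6, the factor that defines follicular helper T cells, had a log2 difference of 0.033 (adjusted p = 0.93). Cxcl13 itself had 0 to 11 WT reads and 3 to 15 KO reads.

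Cxcr6, which marks effector and tissue-resident T cells, stood at 4.02, 5.07 and 3.75 in WT and at 5.11, 5.40 and 5.35 in AMPK KO. WT sample 2 lay just below the lowest AMPK KO sample, and the log2 fold change of 1.01 ± 0.30 (SE) did not pass (limma adjusted p = 0.061). When WT 2 was left out it was 1.40 (0.0060), and with a robust estimate of the spread the adjusted p was 0.047. Fyco1 overlaps Cxcr6 on the opposite strand.

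Ccr3 and Cxcr3, receptors of inflammatory ligands, had higher means without passing. Ccr3, the eosinophil receptor of eotaxins, stood at 3.32, 3.09 and 3.41 in WT and at 4.23, 4.62 and 3.64 in AMPK KO, with no overlap (log2 fold change 0.89 ± 0.31 SE, limma adjusted p = 0.11). Cxcr3, the X-linked receptor of CXCL9, CXCL10 and CXCL11 on Th1 cells, stood at 4.07, 2.85 and 3.26 in WT and at 4.20, 4.21 and 3.99 in AMPK KO, where WT sample 1 lay within the AMPK KO range (log2 fold change 0.74 ± 0.33 SE, adjusted p = 0.21).

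Homing and monocyte receptors had smaller differences. Cxcr4, the receptor of CXCL12, stood at 8.14, 8.42 and 8.03 in WT and at 8.08, 7.59 and 8.15 in AMPK KO, with AMPK KO sample 2 below the others and overlap between the groups. The log2 difference was −0.26 with a 95% confidence interval of −0.62 to 0.10 (limma adjusted p = 0.41), on 2058 to 3417 reads. Ccr6, the receptor of CCL20 on Th17 cells and B cells, stood at 5.40, 4.96 and 5.33 in WT and at 5.61, 5.84 and 4.92 in AMPK KO. Its groups overlapped (log2 difference 0.23, 95% confidence interval −0.29 to 0.74, adjusted p = 0.63).

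Ccr2, the receptor of CCL2 on monocytes and memory T cells, stood at 4.75, 4.43 and 4.27 in WT and at 4.64, 4.36 and 4.78 in AMPK KO. The samples were interleaved, and the log2 difference was 0.11 (95% confidence interval −0.40 to 0.62, limma adjusted p = 0.83). Cx3cr1, the fractalkine receptor of monocytes and cytotoxic T cells, stood at 4.25, 4.24 and 4.60 in WT and at 4.06, 4.75 and 4.01 in AMPK KO. These groups overlapped as well, with a log2 difference of −0.091 (95% confidence interval −0.67 to 0.49, adjusted p = 0.89), and its annotated gene model overlaps several other genes. Neither of these monocyte receptors passed. The other tested receptors, Xcr1 of cross-presenting dendritic cells, Ccr10 of skin-homing T cells and Cxcr2 of neutrophils, had log2 differences of 0.27, 0.44 and 0.16, adjusted p-values of 0.73, 0.68 and 0.90, and overlapping groups.

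The members did not all follow the same library. AMPK KO sample 2 was the highest of its group for 12 of the 16 tested ligands and 10 of the 14 tested receptors, and AMPK KO sample 1 for none (0 of 30). The same order was not counted over all tested genes. Ccl5, Ccl4 and Ccl3 peaked in AMPK KO sample 2, as the macrophage or monocyte sum did, whereas Cxcl10, Cxcl2, Xcl1 and Ccl22 peaked in AMPK KO sample 3. In WT, sample 2 was the highest for 7 of 16 ligands and 4 of 14 receptors, among them Cxcl10, Xcl1, Ccrl2 and Cxcr6.

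Of the 27 members under the filter, 23 were ligands and 4 were receptors. No ligand among them had more than 32 reads in any library and no receptor more than 16, and 7 ligands (Ccl20, Ccl11, Cxcl14, Ccl28, Cxcl3, Ccl26 and Cxcl17) had 0 reads in all 6. With 0 reads in a library the limit is 3 reads, for counting error only, so that absence was not shown. Some had reads in AMPK KO alone or nearly so. Ccl2 had 3, 0 and 0 reads in WT samples 1 to 3 and 17, 5 and 18 in AMPK KO, and Ccl7 had 0 in WT and 8, 6 and 19 in AMPK KO. Together with Cxcl1 these are attractants of monocytes and neutrophils, and the normalized values of each were higher in every AMPK KO sample. The share of genes under the filter with this arrangement was not counted. Reads outside Rn45s numbered 7194439 to 8064254 per WT library and 9623848 to 10025288 per AMPK KO library. Genes with few reads were thus sampled more deeply in AMPK KO. Cxcr1, a neutrophil receptor, had 0 reads in WT and 4, 3 and 6 in AMPK KO.

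A few other ligands had reads in some AMPK KO libraries. Cxcl12, the ligand of CXCR4 and ACKR3, had 0 reads in WT and 18, 8 and 0 in AMPK KO, and Ccl1, a product of activated T cells that binds CCR8, had 0 in WT and 7, 11 and 0. Ackr3 and Ccr8 had lower normalized values in every AMPK KO sample, with the closest samples of the 2 groups set apart by the scaling alone. Ackr3, the scavenger receptor of CXCL12, had 12, 14 and 3 reads in WT and 4, 1 and 0 in AMPK KO, where the normalized values of WT sample 3 and AMPK KO sample 1 were nearly equal (log2 0.421 and 0.420). Ccr8, found on regulatory and Th2 cells, had 5, 1 and 10 reads in WT and 1, 0 and 0 in AMPK KO, where the single reads of WT 2 and KO 1 differ only through the scaling (log2 0.138 and 0.117). Reads of this number give no firm difference, and these members were not in the limma fit. The copies Ccl21a, Ccl21b and Ccl21c and the ligand Ccl19, which bind CCR7 in lymph nodes, had at most 11 reads, and near-identical copies may share reads.

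**Figure D4:**
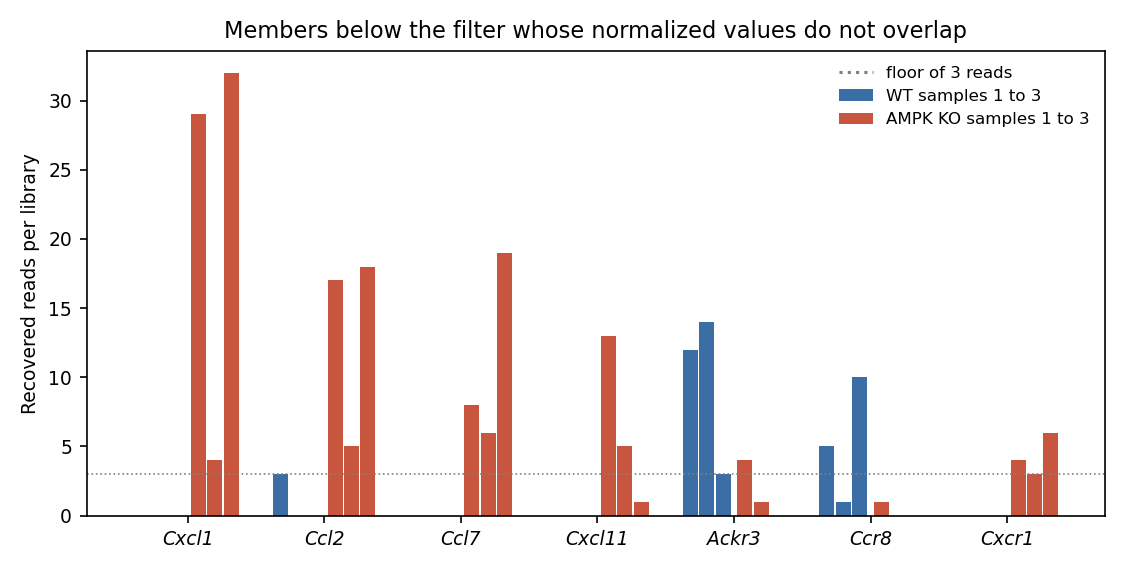
Recovered reads per library are plotted as bars for the members under the filter whose groups did not overlap in normalized values, with blue for WT samples 1 to 3, red for AMPK KO samples 1 to 3 and a dotted line at the floor of 3 reads. Cxcl1 reaches 29 and 32 reads in AMPK KO samples 1 and 3 and 0 in WT, while Ackr3 (4 reads in KO 1, 3 in WT 3) and Ccr8 (1 read in WT 2 and in KO 1) are apart in normalized values and not in reads.

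Genes beyond the members were read from lists of the pathway. Cytokines and transcription factors that induce or accompany chemokines gave 4 of 26 tested genes that rose and 0 that fell, with a median log2 fold change of 0.20. At an unadjusted limma p under 0.05 the counts were 10 higher, among them Il17a, which reached the filter through AMPK KO alone, and 3 lower. The shares over all tested genes were 2.54% higher and 3.10% lower adjusted, and 10.6% and 10.7% unadjusted, so that the 3 lower genes are near the background. The number called, in either direction, was 8 when KO 2 was left out and 2 when WT 1 or KO 1 was left out. Ifng, the inducer of Cxcl9, Cxcl10 and Cxcl11, stood at 2.13, 4.10 and 3.45 in WT and at 4.91, 5.17 and 4.71 in AMPK KO. All AMPK KO samples were above WT, and the log2 fold change was 1.70 ± 0.40 (SE, limma adjusted p = 0.023). When WT 1, WT 3 or KO 1 was left out, the adjusted p was 0.087 (log2 fold change 1.15), 0.081 (1.82) or 0.093 (1.71), and with no filter it was 0.095.

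Il1b, a myeloid inflammatory cytokine, stood at 6.56, 6.74 and 6.68 in WT and at 7.74, 7.63 and 7.51 in AMPK KO. The groups were apart, by 0.96 ± 0.14 (SE, limma adjusted p = 0.0016), in all 14 alternatives. Irf1, a factor that interferon induces, stood at 9.07, 9.16 and 9.06 in WT and at 9.77, 10.04 and 9.91 in AMPK KO. It rose by 0.81 ± 0.14 on the log2 scale (limma adjusted p = 0.0034). With the sample number added as a term it did not pass (0.05004). Stat4, which carries the IL-12 signal of Th1 cells, rose by 0.99 ± 0.19 (adjusted p = 0.0071) and did not pass when WT 1 (0.069) or KO 1 (0.062) was left out. Among the genes of the list that did not pass, the NF-kB subunit gene Rela had a log2 difference of 0.015 (adjusted p = 0.97), Tbx21 of Th1 cells 0.35 (0.55) and Tnf 0.60 (0.087).

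**Figure D5:**
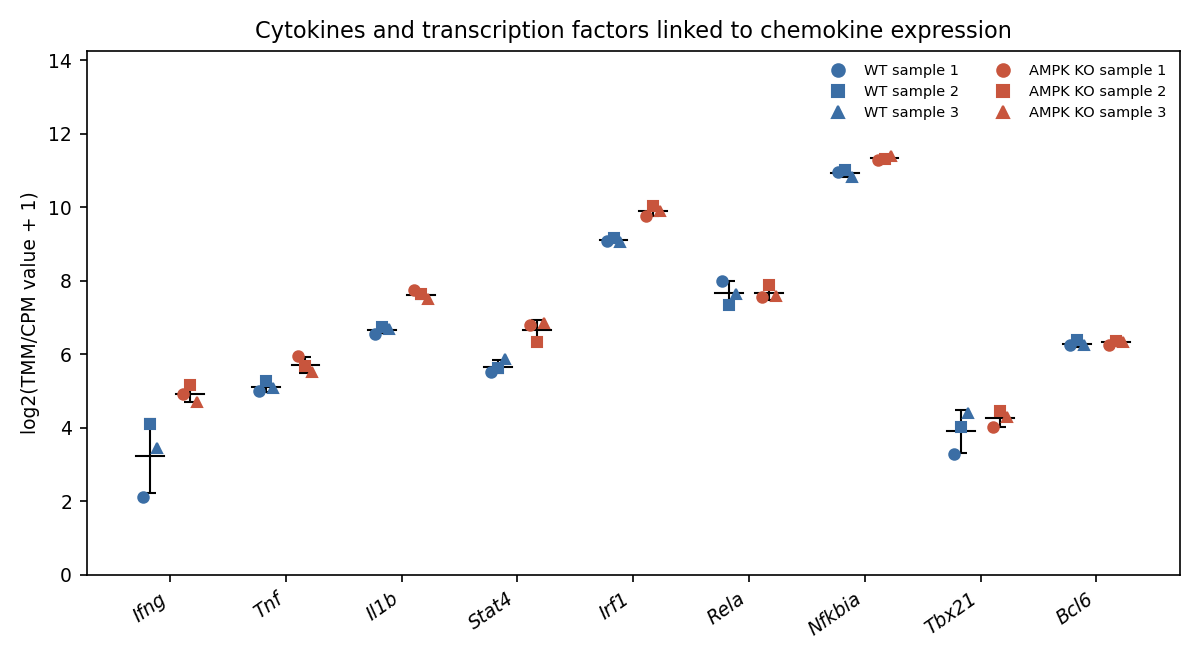
The log2 value of each sample is plotted for 9 cytokines and transcription factors linked to chemokine expression, with blue for WT, red for AMPK KO, bars for the group mean and whiskers for the SD (n = 3). Ifng, Il1b, Stat4 and Irf1 lie higher in every AMPK KO sample, and Rela and Bcl6 overlap.

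Signalling genes below the receptors, such as G proteins, arrestins and RGS proteins, gave 0 of 36 that rose and 1 that fell, with a median log2 difference of 0.095 (5 higher and 4 lower at the unadjusted p). These counts lie near the shares over all tested genes, 2.54% and 3.10% adjusted and 10.6% and 10.7% unadjusted. The number called, in either direction, was 6 when KO 2 was left out, 3 when WT 2 was left out, with a robust spread or with scaling outside Rn45s, and 0 when WT 1, WT 3 or KO 1 was left out. The gene that fell was Rassf5 (RAPL), which links chemokine signals to integrin adhesion and stood at 7.67, 7.47 and 7.62 in WT and at 7.03, 6.94 and 6.92 in AMPK KO. The log2 change was −0.62 ± 0.14 (SE, limma adjusted p = 0.019), and the adjusted p was 0.11, 0.11 or 0.080 when WT 1, WT 3 or KO 1 was left out. A list of other genes of the chemokine system (other ligands, atypical receptors, the MIF and CKLF families and Dpp4) gave 2 of 9 tested genes that rose and 0 that fell (3 and 0 at the unadjusted p), where 2.54% of all tested genes rose and 10.6% were higher at the unadjusted p. The count was 0 with no filter and when WT 1, WT 3 or KO 1 was left out, and 1 with a robust spread, with a filter at 3 and when WT 2 or KO 3 was left out. Pf4 (CXCL4), a platelet chemokine, stood at 1.20, 2.49 and 2.14 in WT and at 3.41, 3.67 and 3.61 in AMPK KO. It rose by 1.62 ± 0.39 on the log2 scale (SE, limma adjusted p = 0.027). It did not pass when WT 1 (0.12), WT 3 (0.080), KO 1 (0.095) or KO 3 (0.059) was left out, or with no filter (0.090).

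Cd74, the MHC class II invariant chain of antigen-presenting cells and a receptor of MIF, stood at 9.18, 8.81 and 9.15 in WT and at 9.85, 10.54 and 9.40 in AMPK KO. The groups were apart with AMPK KO sample 2 highest, and the log2 fold change was 0.88 ± 0.22 (SE, limma adjusted p = 0.033). This call was lost when WT 1 (0.13), WT 2 (0.080), WT 3 (0.13) or KO 1 (0.10) was left out, with no filter (0.13) and with a robust spread (0.075). Its ligand gene Mif had a log2 difference of 0.083 (adjusted p = 0.84).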

How the data were processed

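RNA of 6 libraries (3 WT, 3 AMPK KO) was analysed, with groups and sample numbers from the labels. The authors deposited log2 values per gene symbol, made from QuantSeq 3′ reads after TMM and CPM normalization, with 1 added before the log. The submitters' processing notes name mm10, Bowtie2 and bedtools; the annotation and the use of strand are not given in the sources used here. Reads were recovered from the step of the values in each library: up to 100 reads, 100% of the values came within 0.1 of an integer. The members and gene lists were chosen with earlier results of these data known.

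The 11279 genes whose mean log2 was 1 or more over all 6 samples were tested with limma 3.58.1 (lmFit, eBayes with trend) in R 4.3.3, two-sided, with genotype as the only term and Benjamini-Hochberg adjustment over all of them. The code was tested on simulated data. An exact two-sided permutation test over samples was run for single genes. Repeated lines of a symbol, all at 0, were kept apart. Members were given values by sample where they passed an adjusted p of 0.05, were among the 6 ligands or 6 receptors with the highest mean, or did not overlap and differed by at least 1 in log2; others follow by role, and Mif and the low members were chosen after their values were seen. Ratios were taken of mean values without the pseudocount of 1. Alternatives were no filter, a filter at 3, quantile normalization, scaling outside Rn45s, a pseudocount of 0.5, robust spread, a replicate block and leaving out each library, and voom on recovered reads, which was added after seeing the data. Gene positions came from GENCODE M21 (GRCm38) and promoters from RefSeq. Tables were made with pandas 2.3.3 and numpy 2.4.6 in Python 3.11.15, and plots with matplotlib 3.10.9. Depth was 9575307 to 11185507 reads per library, and read limits cover counting error only. Single-gene values of 1 tested receptor and of a few list genes are not reported here, and the counts, medians and sums include them.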

Additional observations from a re-analysis of the deposited data

How the results depend on the processing

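In 14 alternatives, 372 of 406 fold changes of tested members kept their direction and their side of the threshold, and 0 ligands and 0 receptors were called lower in any of them. With no filter, 0 receptors were called and 308 genes in all. Leaving out each library gave 2 to 6 ligands, 0 to 2 receptors and 127 to 1243 genes. The lowest count of all genes was without WT sample 1, and counts were also low without WT sample 3 (133) and AMPK KO sample 1 (173), and highest without AMPK KO sample 2. Directions turned for 5 members under leave-one-out: Cxcr2 ranged from −0.46 to 0.60, Ccl27a from −0.17 to 0.40, Ccl24 from −0.044 to 0.92, Ccl25 from −0.94 to 0.13 and Cx3cr1 from −0.33 to 0.044. The cause was not tested. The sample numbers do not pair the samples: over 6143 genes with a mean of at least 4, deviations from the group means correlated at −0.23, −0.53 and −0.31 for equal numbers and reached 0.46 for WT sample 2 with AMPK KO sample 3. The fit with a replicate block called 3 ligands, 0 receptors and 102 genes. In it Cxcl10, Cxcl2, Ccrl2 and Cxcr5 did not pass (limma adjusted p = 0.059, 0.059, 0.056 and 0.14). Nor did Irf1, Stat4, Ifng, Cd68, Csf1r, Cd3e, Cd3g, Cd28, Cd74, Pf4 and Rassf5. A planned count test (edgeR) of the reads recovered from the deposited log2 values was not run, and voom on these reads took its place (5 ligands, 2 receptors, 538 genes). Depth limits the members with few reads, which were not in the limma fit. Groups of 3 samples were not searched for single far samples.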
